A study of Meriones unguiculatus and Mus musculus with 2 samples.

Results

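The genes described here are the major histocompatibility complex (MHC, called H2 in the mouse) and antigen presentation genes of a deposited expression table. A table row was a member if its mouse symbol began with H2- or was B2m, Tap1, Tap2, Tapbp, Tapbpl, Erap1, Calr, Canx, Cd74, Ciita, Cd1d1, Cd80 or Cd86. The rule took 56 of 41214 listed genes: 43 named H2-, each on mouse chromosome 17, and 13 others. RNA sequencing had been run on wound tissue from 2 species, with 1 library for the Mongolian gerbil, Meriones unguiculatus, and 1 for the mouse, of the outbred ICR stock. Both samples were taken 3 days after wounding, both carry the tissue label wounded dermis, and the labels give no age, sex or genotype for either. With 1 library per species there was no replicate, test or p-value, and each difference describes these 2 libraries only. Values are FPKM, mapped fragments corrected for transcript length and library size. ICR values are listed per mouse gene, whereas a gerbil value is that of an assembled sequence listed beside a mouse gene with an expectation value (E-value, smaller for a stronger match), so related mouse genes can be listed with the same gerbil number. Depth is unknown, because the table holds no counts.

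MHC class I molecules, found on nearly all nucleated cells, show peptides from the cell's own cytosol to CD8+ T cells and are read by natural killer cells. Each consists of a polymorphic heavy chain and the invariant light chain beta-2 microglobulin, assembled in the endoplasmic reticulum around a peptide that the TAP transporter delivers. MHC class II molecules, found on dendritic cells, macrophages, B cells and Langerhans cells, show endocytosed peptides to CD4+ T cells after the invariant chain has been cleared from the groove by proteases and by H2-DM.

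Of the 56 members, 49 had a gerbil value, and these 49 held 25 distinct gerbil numbers. One number, 545 FPKM, was listed for 23 class I heavy chain members and for 36 genes in all; the other 13 genes with it are also on chromosome 17 and together reached 6.63 FPKM in ICR. The coding sequences below show how alike these mouse genes are. They are 90-base stretches of mouse coding sequence (GENCODE M21, GRCm38, chromosome 17, sense strand), taken where the members with the shared number were most alike to H2-K1, and capitals mark bases that differ from H2-K1. H2-K1 to H2-M10.2 carried the shared gerbil number, and H2-T24 and H2-M2 did not.
H2-K1: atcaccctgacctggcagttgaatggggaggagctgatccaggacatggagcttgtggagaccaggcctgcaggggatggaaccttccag
H2-D1: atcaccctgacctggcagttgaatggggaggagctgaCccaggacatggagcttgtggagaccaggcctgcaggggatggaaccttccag
H2-Q4: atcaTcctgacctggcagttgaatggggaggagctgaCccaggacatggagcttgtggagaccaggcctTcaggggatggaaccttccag
H2-T23: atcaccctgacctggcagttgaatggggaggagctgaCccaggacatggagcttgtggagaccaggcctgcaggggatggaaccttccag
H2-T22: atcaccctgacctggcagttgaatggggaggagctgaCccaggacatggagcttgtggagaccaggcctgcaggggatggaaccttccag
H2-M3: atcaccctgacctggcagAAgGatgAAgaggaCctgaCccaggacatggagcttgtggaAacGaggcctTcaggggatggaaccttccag
H2-M10.2: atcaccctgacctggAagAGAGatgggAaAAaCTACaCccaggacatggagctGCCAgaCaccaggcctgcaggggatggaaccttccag
H2-T24: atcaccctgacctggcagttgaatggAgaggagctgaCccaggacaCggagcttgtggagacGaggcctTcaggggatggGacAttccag
H2-M2: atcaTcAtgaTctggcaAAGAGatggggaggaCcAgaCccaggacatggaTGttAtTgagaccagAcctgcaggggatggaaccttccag

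H2-D1, H2-T23 and H2-T22 each differed from H2-K1 at 1 of these 90 bases, H2-Q4 at 3, H2-M3 at 10 and H2-M10.2 at 18. H2-T24, with a gerbil number of its own among the members, differed at 7, fewer than H2-M3 or H2-M10.2. Over the whole coding sequence, identity to H2-K1 was 91.5% for H2-D1, the highest of the 18 members with the shared number and a full coding sequence besides H2-K1; their median was 77.3%, and they ran down to 65.8% for H2-M10.5. The members without the shared number had 63.0% to 73.0% identity, so the ranges overlapped. All members above 73.0% identity to H2-K1 had the shared number, and from 65.8% to 73.0% members with and without it were mixed. This is likeness to a mouse gene and not to the gerbil sequence, so why members share the number was not tested. The E-values of the shared number ran from 0 for H2-K1, H2-D1, H2-Q4, H2-Q7 and H2-T23 to 3e-41 for H2-M11.

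The classical class I heavy chains were the most abundant of the heavy chain genes in the ICR wound. H2-D1 (chromosome 17, 35262730 to 35267499, plus strand, GRCm38) was listed at 545 FPKM in gerbil and 1516 in ICR. H2-K1 (33996017 to 34000333, minus strand) was listed at the same 545 FPKM in gerbil and 583 in ICR. H2-D1 was thus 2.78-fold and H2-K1 1.07-fold higher in ICR, on the FPKM + 1 scale that is used for folds throughout and that understates differences of low genes. Neither passed the 4-fold size rule, which stands here in place of a test, although H2-D1 did with the mean housekeeping scaling (log2 difference -3.18).

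The other heavy chain members, most of them non-classical genes of the Qa, Tla and M regions with more restricted roles, were each far lower than H2-K1 and H2-D1 in ICR. H2-Q4 was at 84.7 FPKM in ICR, H2-T23, whose product Qa-1 is the ligand of the NKG2A receptor of natural killer cells, at 70.9, and H2-T22, a ligand of some gamma delta T cells, at 65.5. H2-Q7, which encodes Qa-2, was at 34.8 FPKM in ICR, H2-Q6 at 12.4 and H2-M3, which presents N-formylated peptides of bacteria and mitochondria, at 11.3. Lower still in ICR were H2-T10 (7.41 FPKM), H2-Q2 (6.58), H2-Q10 (3.95), whose product is secreted by the liver, and H2-Q1 (2.75). H2-K2, annotated as a transcribed pseudogene beside H2-K1, was at 5.48 FPKM in ICR. H2-Bl, H2-M11, H2-Q5 and H2-T3 lay between 0 and 1 FPKM in ICR. H2-M10.2, H2-M10.3, H2-M10.4, H2-M10.5, H2-M10.6 and H2-M6-ps, the first 5 of them from a group of genes known from vomeronasal neurons, were listed at 0 in ICR. All 21 had the gerbil number 545, so their difference from gerbil followed from the ICR value alone, and a gerbil level of any one of them was not measured separately. By the size rule the 21 counted as at least 4-fold higher in gerbil; the fold was 6.37 for H2-Q4 and 15.3 for H2-Q7, and none is given for those at 0.

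Set against the sum of the ICR values of the same 23 genes, the shared number lay on the other side. The sum was 2406 FPKM in ICR, against 545 in gerbil, or 4.41-fold higher in ICR. H2-K1 and H2-D1 made up 87.2% of the ICR sum, and H2-D1 alone 63.0%. The direction for class I heavy chains thus depended on whether the gerbil number was set against single mouse genes or against their sum; which mouse genes the gerbil sequence stands for was not tested.

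**Figure D1:**
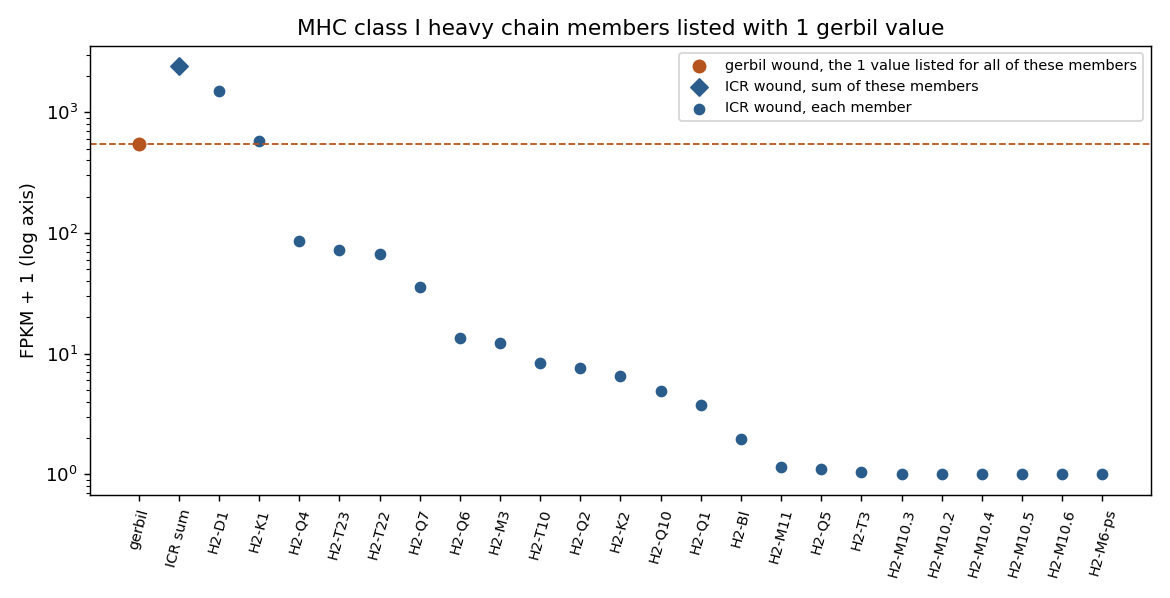
Class I heavy chain members listed with 1 gerbil value. The vertical log axis gives FPKM + 1; the orange point and dashed line are the gerbil value of 545, the diamond is the ICR sum of 2406 and the blue points are the 23 members in ICR. H2-D1 and H2-K1 lie above the line and the 21 other members below it.

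The 3 heavy chain members with another gerbil number were low. H2-T24 was at 5.68 FPKM in gerbil and 7.75 in ICR. H2-M2 was at 10.5 FPKM in gerbil and 1.11 in ICR, 5.44-fold higher in gerbil, a call that was lost with the trimmed mean scaling (log2 difference 1.98), with a pseudocount of 5 (1.34) and with the mean housekeeping scaling (1.00). H2-M5 was at 1.43 FPKM in gerbil and 0.34 in ICR. Its gerbil number is listed for 29 genes, and whether by rounding to 2 decimals or by a shared sequence was not tested. H2-Q3, H2-M9, H2-M10.1 and H2-M1 had no gerbil value and were at 0.11, 0.52, 0 and 0 FPKM in ICR.

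The light chain could not be compared. B2m, beta-2 microglobulin (chromosome 2, 122147686 to 122153083, plus strand), was at 1253 FPKM in ICR and had no gerbil value. B2m is an annotated gene of the gerbil assembly Bangor_MerUng_6.1, so the missing value is not read as a missing gene. Cd1d1, which presents lipids to natural killer T cells on the same light chain, was at 1.78 FPKM in gerbil and 4.25 in ICR. That gerbil number is listed for 26 genes, among them the related Cd1d2, which was at 0 FPKM in ICR. The symbol Cd1d1 was not found in the gerbil annotation.

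Most genes that supply and load peptides onto class I differed less than 4-fold between gerbil and ICR, with Tap1 as the exception among strong matches. Tap1 (chromosome 17, 34187553 to 34197225, plus strand), one chain of the peptide transporter, was at 5.72 FPKM in gerbil and 35.9 in ICR, 5.48-fold lower in gerbil. Its partner chain Tap2 was at 11.1 FPKM in gerbil and 25.8 in ICR, 2.21-fold lower. Both transporter chains were lower in gerbil under every scaling, floor and pseudocount run in which they were measured, though Tap1 no longer reached 4-fold with a pseudocount of 5 (-1.93). Tapbp, tapasin, which bridges the transporter and the heavy chain, was at 97.6 FPKM in gerbil, a number listed for no other gene, and 58.3 in ICR. Tapasin thus differed in the other direction by 1.66-fold, which turned to lower with the mean housekeeping scaling.

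Calr, calreticulin, a chaperone of the loading complex, was at 481 FPKM in gerbil and 549 in ICR, close to level. Canx, calnexin, which holds the free heavy chain, was at 3.94 FPKM in gerbil and 125 in ICR. That gerbil number belongs to an E-value of 4e-09, the weakest among the members, and is listed for 59 genes, so the 25.5-fold difference of Canx is uncertain. Erap1, the aminopeptidase that trims peptides to length, was at 12.7 FPKM in gerbil and 8.62 in ICR, and Tapbpl, a tapasin relative that edits bound peptides, at 10.8 in gerbil and 8.20 in ICR. Both differences were below 1.5-fold and turned to the ICR side with the mean housekeeping scaling, and that of Tapbpl also with the trimmed mean scaling (-0.11).

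Class II genes differed in direction between chains. H2-Aa (chromosome 17, 34282744 to 34287827, minus strand), the alpha chain of the I-A molecule, was at 214 FPKM in gerbil and 315 in ICR. H2-Ab1 (34263209 to 34269418, plus strand), the I-A beta chain, was at 53.1 FPKM in gerbil and 229 in ICR, 4.26-fold lower in gerbil. H2-Eb1 (34305877 to 34316199, plus strand), the beta chain of the I-E molecule, was at 368 FPKM in gerbil and 6.58 in ICR, 48.7-fold higher in gerbil. Hence the I-A beta chain was the abundant beta chain in the ICR wound and the sequence matched to I-E beta in the gerbil wound. H2-Eb2 carried the same gerbil number as H2-Eb1 and was at 0.11 FPKM in ICR. H2-Ea-ps, the I-E alpha gene that is a null allele in some mouse strains, had no gerbil value and was at 3.98 FPKM in ICR.

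The beta chain genes are alike enough for the match to matter. In the following 90-base stretch, where the 3 mouse beta genes are most alike, capitals mark bases that differ from H2-Eb1.
H2-Eb1: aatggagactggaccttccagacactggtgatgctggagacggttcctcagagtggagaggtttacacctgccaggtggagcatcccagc
H2-Eb2: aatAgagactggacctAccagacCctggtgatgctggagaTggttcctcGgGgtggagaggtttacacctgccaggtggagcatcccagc
H2-Ab1: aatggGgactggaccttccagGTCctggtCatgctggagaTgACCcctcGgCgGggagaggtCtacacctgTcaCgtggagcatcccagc

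H2-Ab1 differed from H2-Eb1 at 15 of these bases and H2-Eb2 at 6. Over the aligned coding sequence H2-Eb2 was 77.1% and H2-Ab1 73.8% identical to H2-Eb1. The gerbil numbers of H2-Ab1 and H2-Eb1 were nevertheless different, with E-values of 1e-166 for H2-Ab1 and 0 for H2-Eb1. Summed over H2-Ab1 and the H2-E beta genes, the beta chains reached 421 FPKM in gerbil and 236 in ICR, a smaller difference than that of either chain.

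Ratios within a library do not depend on how the libraries are scaled to each other. The ratio of H2-Eb1 to H2-Ab1 was 6.93 in gerbil and 0.0287 in ICR, a 242-fold difference. The ratio of H2-Aa to H2-Ab1 was 4.04 in gerbil and 1.37 in ICR, and that of summed beta chains to H2-Aa 1.97 in gerbil and 0.75 in ICR. Tapbp over Tap1 was 17.1 in gerbil and 1.63 in ICR, a 10.5-fold difference, and Tap1 over Tap2 was 0.513 in gerbil and 1.39 in ICR. These pairs were chosen after their values were seen.

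**Figure D2:**
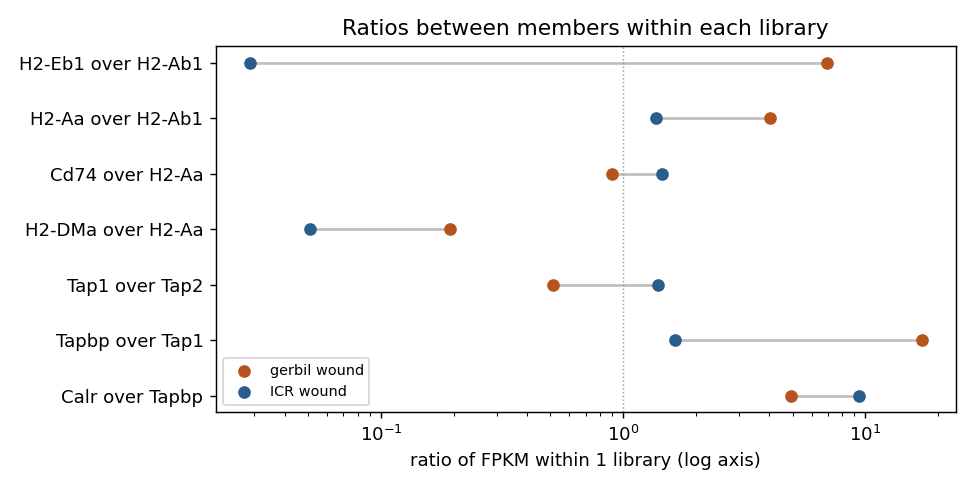
Ratios of FPKM between members within the gerbil library (orange) and the ICR library (blue), on a log axis. The H2-Eb1 to H2-Ab1 ratio lies above 1 in gerbil (6.93) and below 1 in ICR (0.0287), and Tap1 over Tap2 lies below 1 in gerbil (0.513) and above 1 in ICR (1.39).

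Cd74, the invariant chain that fills the class II groove until the endosome, was at 192 FPKM in gerbil and 457 in ICR, 2.37-fold lower in gerbil. Its ratio to H2-Aa was 0.897 in gerbil and 1.45 in ICR. Ciita, the transactivator that switches on class II genes, was low in both libraries, at 2.46 FPKM in gerbil and 1.41 in ICR. A difference in the number of class II cells and a difference in RNA per cell cannot be told apart in tissue of this kind.

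Genes of the peptide exchange factor H2-DM were higher in gerbil at the scale of the table. H2-DMa, its alpha chain, was at 41.4 FPKM in gerbil, a number of its own, and 16.04 in ICR, 2.49-fold higher in gerbil, which turned to lower (log2 difference -0.32) with the mean housekeeping scaling. H2-DMb1 and H2-DMb2, a pair of beta chain genes that are 95.9% identical, shared the gerbil number 39.6 and were at 6.13 and 3.50 FPKM in ICR. Each alone passed 4-fold, and their summed ICR value did not, with a log2 difference of 1.93. In the 90 bases in which the pair differs most, capitals mark the 19 differing bases of H2-DMb2.
H2-DMb1: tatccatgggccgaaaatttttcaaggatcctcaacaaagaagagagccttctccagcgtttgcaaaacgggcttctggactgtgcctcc
H2-DMb2: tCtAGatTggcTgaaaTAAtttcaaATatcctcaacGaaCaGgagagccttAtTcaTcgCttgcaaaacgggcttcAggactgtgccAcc

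Relative to H2-Aa within each library, H2-DMa stood at 0.193 in gerbil and 0.0509 in ICR, a 3.79-fold difference that no scaling alters. The chains of H2-DO, which restrains H2-DM mainly in B cells, were low in both: H2-Ob was at 2.96 FPKM in gerbil and 0.92 in ICR, and H2-Oa was listed at 0 in gerbil and at 1.30 in ICR. A listed 0 is not read as absence, since 563 genes carry it.

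The costimulatory ligands of CD28 and CTLA-4 on T cells were low. Cd86 was at 10.9 FPKM in gerbil and 6.94 in ICR, a difference that, like those of Ciita and H2-Ob, changed sign with the mean housekeeping scaling. Cd80 was at 9.16 FPKM in ICR and had no gerbil value, although its symbol is annotated in the gerbil assembly. H2-Ke6, H2-Pa and H2-Pb have H2 names and no known part in presentation: H2-Ke6 encodes a steroid dehydrogenase, and the other two are pseudogenes. H2-Ke6 was at 3.23 FPKM in gerbil and 9.48 in ICR, and H2-Pa and H2-Pb were at 4.77 and 4.03 FPKM in gerbil and listed at 0 in ICR.

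**Figure D3:**
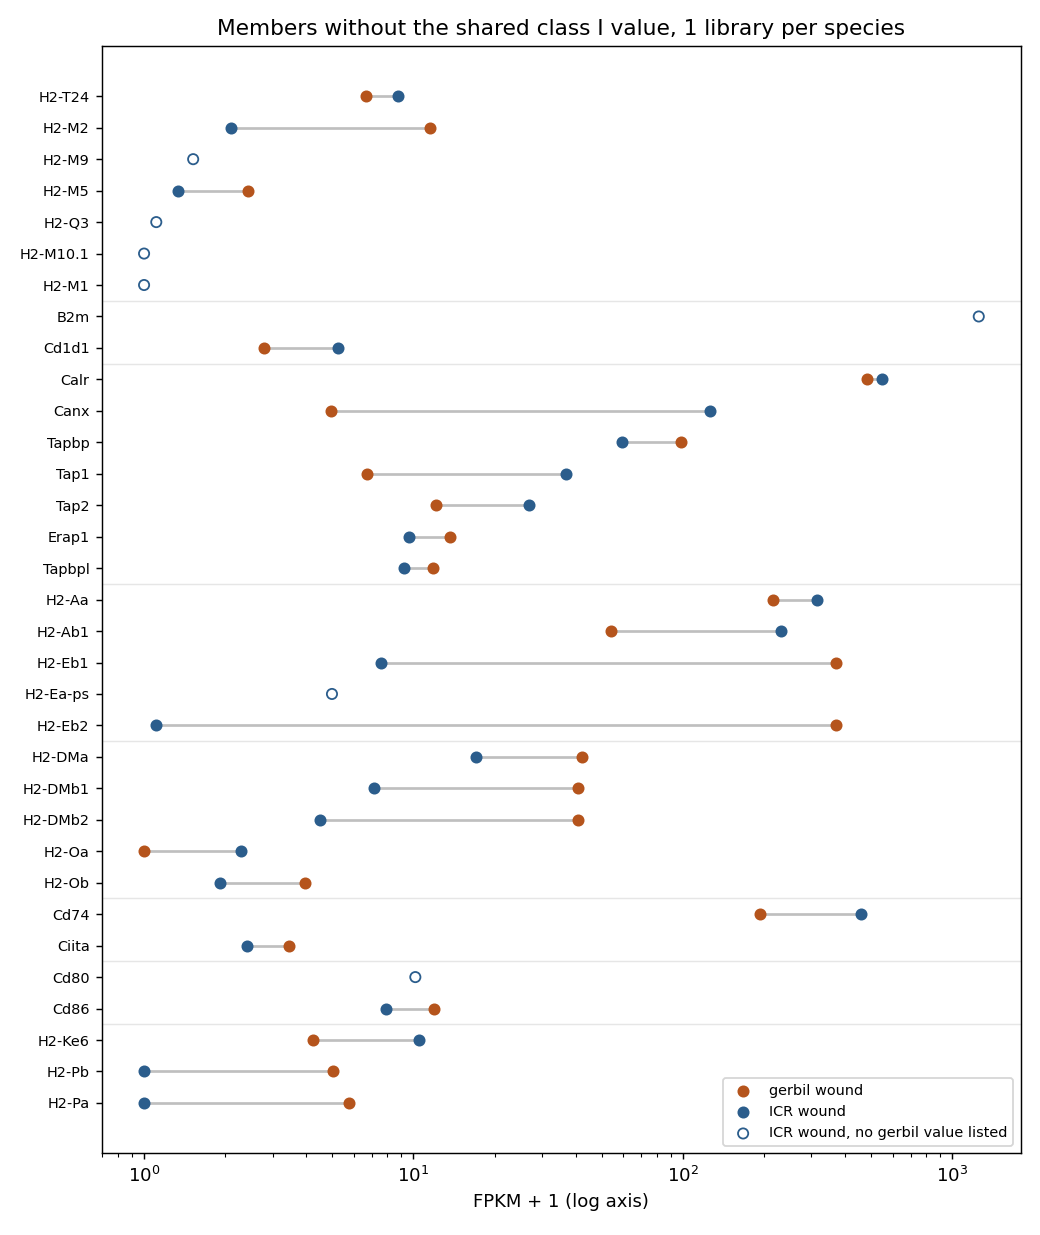
The members without the shared class I number, grouped by role from class I at the top to costimulatory ligands and other H2 names at the bottom. The log axis gives FPKM + 1 in gerbil (orange) and ICR (blue), and open circles are the 7 members with no gerbil value. H2-Eb1 (368 and 6.58 FPKM) and H2-Ab1 (53.1 and 229) differ in opposite directions, and B2m (1253 in ICR) has no gerbil point.

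Over all 49 members with both values, 28 (57.1%) passed 4-fold on the gerbil side and 3 (6.12%) on the ICR side, while among all 20089 measured symbols the shares were 25.9% higher and 5.56% lower. The members' excess came from the shared class I number: 21 of the 28 carried it. Among the 26 members without it, 7 (26.9%) passed 4-fold upward and 3 (11.5%) downward; the 7 are H2-Eb1, H2-Eb2, H2-DMb1, H2-DMb2, H2-M2, H2-Pa and H2-Pb, and the 3 are Canx, Tap1 and H2-Ab1. Protein-coding symbols alone had a background of 9.71% higher and 7.42% lower (14054 symbols), against 21 and 3 of 42 protein-coding members. Of the 24 protein-coding members without the shared number, 5 (20.8%) were higher and 3 (12.5%) lower, both shares above that background. The 5 include H2-Eb1 with H2-Eb2 and H2-DMb1 with H2-DMb2, and each pair carried a single gerbil number. The upward share thus counted those gerbil numbers more than once. Protein-coding members of 1 gerbil number were then joined and their ICR values summed. Of the 23 units, 2 were higher and 4 lower, with the class I heavy chains among the lower. H2-Pa and H2-Pb, the 2 pseudogenes of the 7, lost their calls with a pseudocount of 5 (0.97 and 0.85), and H2-Pb also with the trimmed mean scaling (1.93). The mean housekeeping scaling took 1.71 off each gerbil log2 value; 20 members were then higher and 8 lower, against 16.8% and 16.5% of all symbols, and H2-DMb1, H2-DMb2, H2-M2, H2-Pa, H2-Pb, H2-Q4, H2-T22 and H2-T23 no longer passed. H2-D1, Cd74 (-2.93), Tap2 (-2.60), H2-Ke6 (-2.40) and H2-Aa (-2.25) then passed 4-fold lower. That scaling is itself uncertain, since its 39 genes ranged from -6.17 to 9.92 and their median lowered gerbil by 0.38 only.

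The median log2 difference (gerbil minus ICR) was 2.53 over the 49 members and 0.87 over all measured symbols. With members of 1 gerbil number joined and their ICR values summed, 25 units remained. Their median was 0.36, 13 lay on the gerbil side and 12 on the ICR side, and 4 passed 4-fold in each direction. Those higher in gerbil were the H2-E beta pair, H2-M2, H2-Pa and H2-Pb. Those lower were the 23 class I heavy chains, Tap1, H2-Ab1 and Canx. Over all measured symbols, which were not joined in this way, 25.9% were higher and 5.56% lower. Neither the median nor the even split of the units was stable. With the trimmed mean scaling, which lowered gerbil by 0.52, the unit median was -0.11. Past 4-fold, 2 units were then higher and 4 lower, against 22.1% and 7.8% of all symbols. With the mean housekeeping scaling 1 unit was higher and 8 lower, against 16.8% and 16.5% of all symbols. With a pseudocount of 5, 1 unit was higher and 3 lower, against 16.5% and 2.77%.

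**Figure D4:**
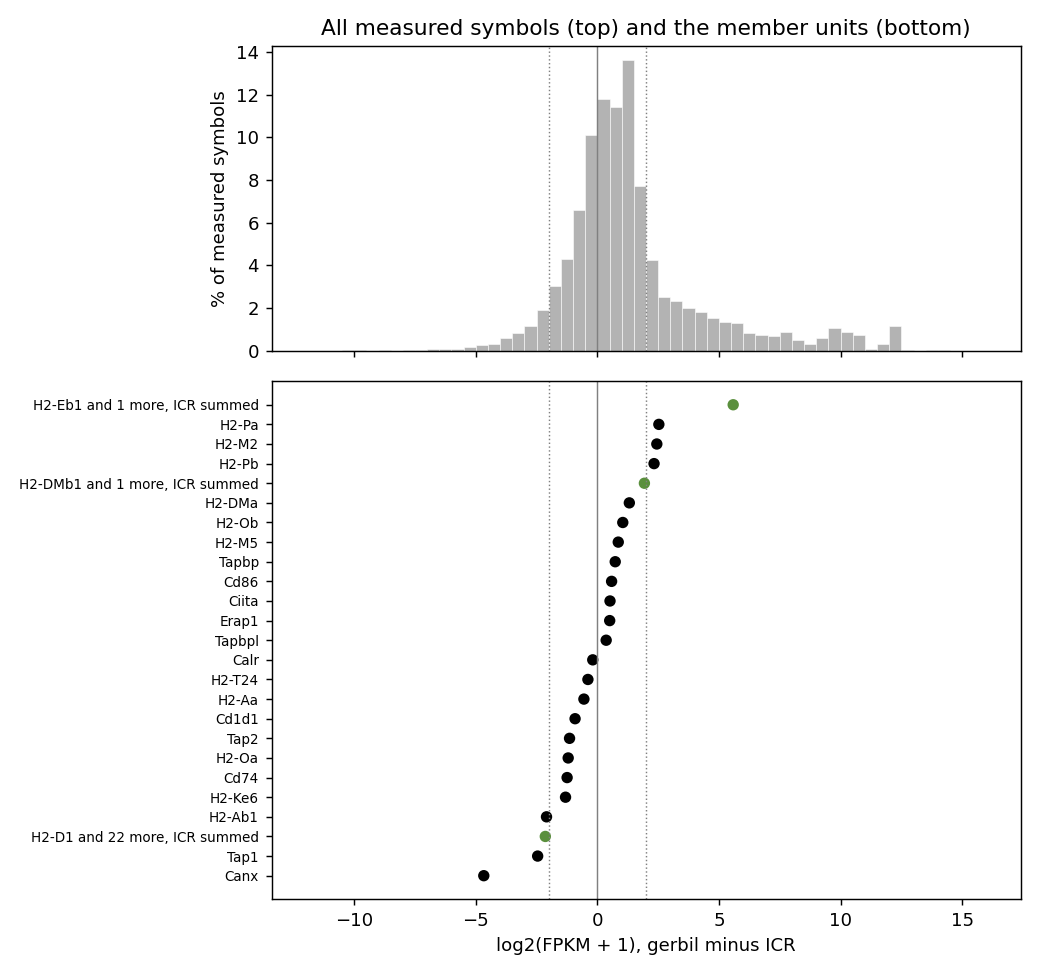
Top, the share of all 20089 measured symbols by log2 difference (gerbil minus ICR, FPKM + 1). Bottom, the 25 member units on the same axis, with ICR values summed where members share a gerbil number (green); dotted lines mark 4-fold. The units spread over both sides of 0, from Canx (-4.67) to the H2-E beta pair (5.59).

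Most measured partner genes of the pathways outside the member list were within 4-fold between gerbil and ICR. Of 76 genes in 6 lists, 63 were measured, 1 (1.59%) passed 4-fold upward in gerbil and 6 (9.52%) downward, against 9.71% and 7.42% of protein-coding symbols and 25.9% and 5.56% of all symbols; 61 of the 63 are annotated as protein-coding. Genes of class II antigen processing in the endosome had a median of -0.28 over 9 measured genes, with 0 higher and 1 lower past 4-fold. Ctsd, the aspartic protease cathepsin D and the most abundant gene of this list, was at 1155 FPKM in gerbil and 1187 in ICR. Ctsl, which cleaves the invariant chain in thymic epithelium, was at 501 and 611 FPKM in gerbil and ICR, the asparaginyl endopeptidase Lgmn at 333 and 373, and the lysosomal thiol reductase Ifi30 at 129 and 125. Ctss, which cleaves the invariant chain in dendritic cells and B cells, had no gerbil value and was at 390 FPKM in ICR. Ctsb, the gene past 4-fold, was at 1.68 FPKM in gerbil and 594 in ICR on an E-value of 1e-16. That gerbil number is listed for 365 genes, so the difference of Ctsb is uncertain.

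Folding, trimming and recycling partners of class I had a median of -0.38 over 17 genes, with 0 higher and 3 lower past 4-fold. The disulfide isomerases Pdia3, which is part of the loading complex, and Pdia6 were at 2.84 and 0.86 FPKM in gerbil and at 351 and 167 in ICR, with E-values of 4e-20 and 2e-45. Their gerbil numbers are listed for 26 and 18 genes, so both differences are uncertain. Ide, an endopeptidase of the cytosol, was at 45.7 FPKM in gerbil and 233 in ICR with an E-value of 0. Hspa5, the most abundant of the list in gerbil, was at 402 FPKM in gerbil and 326 in ICR. The immunoproteasome genes Psmb8 (35.1 and 62.0 FPKM in gerbil and ICR), Psmb9 (19.5 and 23.6) and Psmb10 (32.9 and 32.7) were within 2-fold.

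MHC transcription and interferon-gamma signalling genes had a median of -0.14 over 16 measured genes. Irf1, an interferon-induced activator of class I genes, was at 19.9 FPKM in gerbil and 20.97 in ICR. The receptor chain Ifngr1, the most abundant gene of the list in gerbil, was at 110 FPKM in gerbil and 57.7 in ICR, and Ifngr2 was listed at 0 in gerbil on an E-value of 5e-33 and at 19.9 in ICR. Rfx5, a subunit of the complex that binds class II promoters, was at 4.50 FPKM in gerbil and 2.64 in ICR.

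MHC-like molecules outside the H2 names had a median of -0.31 over 6 measured genes, and none passed 4-fold. Fcgrt, the neonatal Fc receptor, was their most abundant gene, at 151 FPKM in gerbil and 173 in ICR. Other costimulatory and checkpoint ligands had a median of 0.54 over 8 genes, with Tnfsf9, the ligand of 4-1BB, at 152 FPKM in gerbil and 4.19 in ICR, and Lgals9, galectin-9, at 3.21 in gerbil and 59.1 in ICR. The T cell genes were low in both libraries: the 7 measured ones summed to 17.1 FPKM in gerbil and 6.96 in ICR, with a median of 0.69 and none past 4-fold, and Cd3g, the most abundant, was at 4.21 and 2.47.

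**Figure D5:**
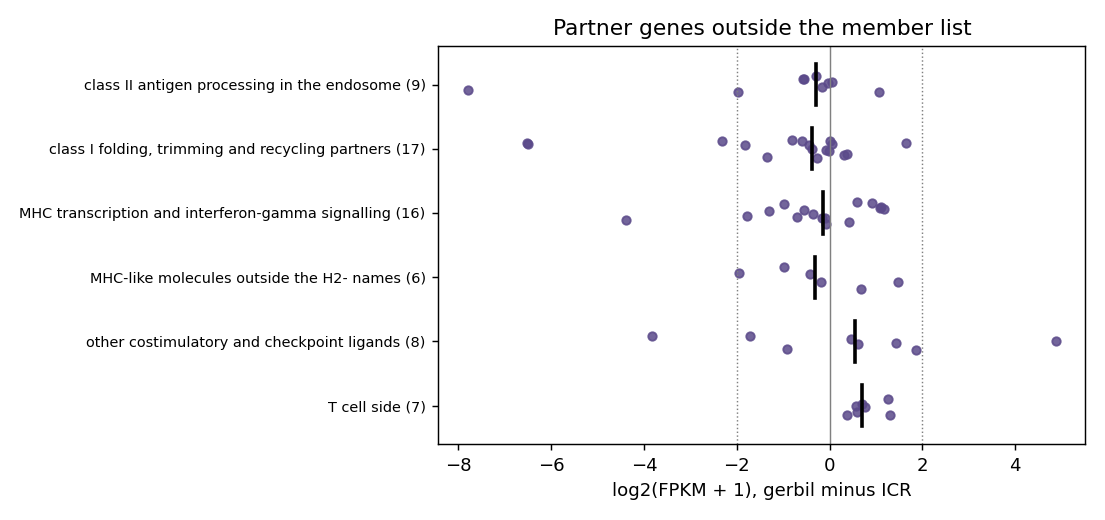
Log2 difference (gerbil minus ICR, FPKM + 1) of the measured partner genes in 6 lists, 1 point per gene, with the list median as a black bar and dotted lines at 4-fold; the number of genes is in parentheses. Medians lie between -0.38 and 0.69, and 56 of 63 genes are within 4-fold.

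Markers of the cells that carry class II were present in both wounds. Of 11 dendritic cell genes 9 were measured, 8 higher and 1 lower in gerbil and none past 4-fold, with a sum of 303 FPKM in gerbil and 161 in ICR, most of it Fscn1 (230 and 95.1). Itgax, the integrin CD11c, was at 23.3 FPKM in gerbil and 7.33 in ICR, and Flt3, Zbtb46, Batf3, Xcr1 and Clec9a lay between 1.15 and 3.42 in gerbil and between 0.08 and 1.29 in ICR. Of 6 Langerhans cell genes 3 were higher and 3 lower, summing to 117 FPKM in gerbil and 655 in ICR, and Cd207, langerin, was at 2.76 in gerbil and 2.83 in ICR. Most of that ICR sum was Cd24a (8.63 FPKM in gerbil and 488 in ICR) and Sirpa (4.67 and 90.6), which other cells also express and which both passed 4-fold lower. Of 11 macrophage and monocyte genes 8 were measured, 3 higher and 5 lower, with a sum of 991 FPKM in gerbil and 1565 in ICR, most of it Cd14 (784 and 1332). Csf1r was at 111 FPKM in gerbil and 77.6 in ICR, while Ccr2 (3.34 and 43.2) and Ly6c2 (0.80 and 15.2) passed 4-fold lower. The gerbil number of Ly6c2 is listed for 20 genes, on an E-value of 8e-57, and that of Ccr2 for 13 genes. Mertk was listed at 0 in gerbil. Of 7 B cell genes 4 were measured and all 4 were higher, summing to 36.2 FPKM in gerbil and 11.6 in ICR, more than any other from Ms4a1, CD20 (19.5 and 0.019), whose gerbil number is listed for 30 genes on an E-value of 5e-53, and Cd79a and Pax5 had no gerbil value and were at 0.10 and 0 FPKM in ICR. The part of these cell types in the class II values was not tested. Tissue markers differed in both directions. The epidermal genes Krt1 (2469 FPKM in gerbil and 2471 in ICR), Krt5 (11793 and 4284), Krt10 (268 and 1107) and Trp63 (1.59 and 57.6) stood beside Krt14, at 18470.5 in gerbil and listed at 0 in ICR. The gerbil numbers of Krt5, Krt10, Krt14 and Trp63 are listed for 9, 6, 5 and 32 genes, and that of Krt1 for no other gene. Of the fibroblast genes, Col1a2 was at 1079 FPKM in gerbil and 502 in ICR and Dcn at 162 and 482, so that both libraries held epidermal and dermal RNA, although the label names dermis.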

How the data were processed

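Total RNA of wounded skin, 1 gerbil and 1 ICR library, was sequenced from TruSeq libraries, per the labels' protocols. The authors deposited FPKM values; per the file headers, those of gerbil follow an assembly, and each mouse gene has an expectation value. Without roles, the build GRCm38.p2 and the tools Cufflinks 2.2.1, RSEM 1.2.19, STAR 2.4.0b and CASAVA appear in the submitters' processing notes; assembler and search program: not given in the sources used here. Coordinates are the table's, on GRCm38.

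Differences were log2(FPKM + 1) in gerbil minus ICR. A symbol counted as measured when both libraries had a value and either reached 1 FPKM; of repeated symbols, the entry highest on average was used. A 4-fold size rule replaced tests. Scalings used a trimmed mean of log ratios, or the median or mean difference of 39 ribosomal protein and housekeeping genes. Coding sequences came from GENCODE M21 (the principal or longest complete one per gene, aligned globally with Biopython 1.88). All members with a gerbil value were named, and of partner lists the most abundant gene and those past 4-fold; others were chosen after their values were seen. Members and lists were chosen with earlier results of these data known. Scripts ran under Python 3.11.15 with scipy 1.17.1, pandas 2.3.3 and numpy 2.4.6.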

Additional observations from a re-analysis of the deposited data

How the results depend on the processing

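No paired analysis was possible because gerbil and ICR had a single library each, and for the same reason no replicate was left out. The median over units was -0.29 with a floor of 5 FPKM in at least 1 library or of 1 FPKM in both, -0.11 with the trimmed mean scaling, -0.19 for matches with an expectation value of 0 and for protein-coding genes alone, and -1.09 with the mean housekeeping scaling. The 5 members with a gerbil number found on no further gene gave a median of -0.55, as members and as units. Of them 0 were higher and 1 lower past 4-fold, against 7.46% and 2.07% of all such symbols. Matches with an expectation value of 0 gave a median of 0.43 over 22 members, with 7 higher and 1 lower. All symbols with such matches had a median of 0.38, with 16.6% higher and 5.27% lower. Taking 1 member per gerbil number gave 0.36 over 25 members, with 5 higher, against 25.9% of all symbols. A floor of 1 FPKM in both libraries left 15 of 33 members higher, against 6.93% of all symbols. Of 49 members, a 2-fold rule gave 8 lower and an 8-fold rule 1, against 12.9% and 2.51%. The mean housekeeping scaling gave 8 lower, against 16.5%. Restricted sets hold fewer genes by construction; the cause of the other shifts was not tested. No member past 4-fold changed direction under any alternative run. Protein-coding genes, 1 member per gerbil number, the mean housekeeping scaling and adding the 13 other genes with the shared class I number to the ICR sum, which left the unit median at 0.36, were tried after the data were examined. The number of libraries and unknown depth limit every value.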
